A study of Mus musculus with 8 samples.

Results

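MHC class I antigen presentation was followed in whole livers through 10 genes, given by name for their roles in the pathway and chosen with earlier results of these data known. They are the classical heavy chains H2-K1 and H2-D1, the light chain B2m, the peptide transporter subunits Tap1 and Tap2, the loading chaperone Tapbp (tapasin), the immunoproteasome subunits Psmb8, Psmb9 and Psmb10, and the transactivator Nlrc5. They are 10 of the 25239 gene symbols counted, and all 10 were among the 12977 genes with enough reads to be tested. The samples were livers of 4 control and 4 Smo-KO mice, adult Smo fl/fl males on a C57Bl6/J background, fed the CDA-HFD, a choline-deficient and amino acid-defined high-fat diet, for 6 weeks. Each mouse received a vector 1 week before sacrifice. Controls received AAV8-TBG-Luciferase and Smo-KO mice received AAV8-TBG-Cre Recombinase. The labels give the control genotype as WT and the other as SMO KO, although all of the mice carry the floxed allele. The TBG promoter is active in hepatocytes, so Smo in other liver cells is not targeted.

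Class I molecules show peptides from inside a cell to CD8+ T cells. The proteasome cuts proteins into peptides, and interferon gamma makes cells replace the catalytic subunits of the constitutive proteasome with those of the immunoproteasome. The Tap1-Tap2 transporter moves the peptides into the endoplasmic reticulum (ER), where tapasin holds the empty heavy chain next to the transporter until a peptide binds, and B2m completes the molecule that travels to the cell surface. Hepatocytes carry little class I at rest, and interferon raises it. Nlrc5 is recruited to the promoters of class I genes by the RFX, CREB/ATF and NF-Y factors bound there.

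The genes lie on 3 chromosomes of the mouse genome (RefSeq GRCm38.p6; the submitters' processing notes name the build GRCm38). H2-K1 (gene ID 14972) is at chr17:33996012-34000619 on the minus strand and H2-D1 (14964) at chr17:35263094-35267497 on the plus strand, 1262474 bases apart. Tapbp (21356) is at chr17:33919478-33929290, plus strand. Psmb9 (16912, chr17:34182030-34187330, minus), Tap1 (21354, chr17:34187556-34197225, plus), Psmb8 (16913, chr17:34198195-34201454, plus) and Tap2 (21355, chr17:34204479-34216321, plus) sit side by side in 34292 bases of the MHC. Outside the MHC are B2m (12010, chr2:122147687-122153082, plus), Psmb10 (19171, chr8:105935728-105938392, minus) and Nlrc5 (434341, chr8:94434335-94527272, plus). The values below sum over the exons of a gene.

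Upstream sequence is shown for the heavy chains and B2m, which form the surface molecule and whose values are compared below, and for the interval between Psmb9 and Tap1, which start in opposite directions 225 bases apart. Each run is 5′ to 3′ on the coding strand of the named gene, or of Tap1 for the shared interval, and ends just before the annotated start. For H2-K1 the more downstream of 2 RefSeq starts was used, so its run lies inside the interval given above for the gene. Capitals mark, on either strand, the IRF core AANNGAAA, the GAS core TTCNNNGAA, the CRE half-site TGACG and the CCAAT box. The IRF, CRE and CCAAT letters are known to be bound by IRF factors, CREB/ATF and NF-Y, respectively, and the GAS core is an element of interferon gamma-responsive promoters.
H2-K1, chr17:34000334-34000583, minus strand: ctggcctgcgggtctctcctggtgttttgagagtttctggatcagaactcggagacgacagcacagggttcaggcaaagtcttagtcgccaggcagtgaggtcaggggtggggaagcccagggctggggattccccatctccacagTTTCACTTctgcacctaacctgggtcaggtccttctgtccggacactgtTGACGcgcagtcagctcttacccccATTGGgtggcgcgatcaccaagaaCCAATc
H2-D1, chr17:35262844-35263093, plus strand: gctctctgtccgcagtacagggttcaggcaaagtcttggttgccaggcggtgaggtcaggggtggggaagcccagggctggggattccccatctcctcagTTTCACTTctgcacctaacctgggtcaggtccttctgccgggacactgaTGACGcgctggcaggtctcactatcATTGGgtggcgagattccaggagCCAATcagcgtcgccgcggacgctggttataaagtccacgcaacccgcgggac
B2m, chr2:122147437-122147686, plus strand: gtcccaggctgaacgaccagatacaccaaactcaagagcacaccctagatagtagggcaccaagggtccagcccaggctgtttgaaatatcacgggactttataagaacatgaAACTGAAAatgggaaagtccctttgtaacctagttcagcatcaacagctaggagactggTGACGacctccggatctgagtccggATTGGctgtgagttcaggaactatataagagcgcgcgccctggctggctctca
Psmb9 to Tap1, chr17:34187331-34187555, plus strand: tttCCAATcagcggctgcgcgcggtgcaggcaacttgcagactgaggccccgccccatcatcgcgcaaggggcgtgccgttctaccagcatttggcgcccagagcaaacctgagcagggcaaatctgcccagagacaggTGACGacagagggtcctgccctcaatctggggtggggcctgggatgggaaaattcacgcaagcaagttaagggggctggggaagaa

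The upstream runs of H2-K1 and H2-D1 were 87.2% identical over 203 aligned bases, and both held the IRF core, the CRE half-site and the CCAAT box in that order. Their IRF core began 49 bases before the CRE half-site, which began 25 bases before the first CCAAT box. In B2m the same distances were 59 and 25 bases. The shared Psmb9-Tap1 interval held a CCAAT box and a CRE half-site and no match to the IRF or GAS letters. Of the 8 members found in the RefSeq promoter table, 3 had the IRF core within 250 bases before the start, 1 the GAS core (Psmb8), 5 the CRE half-site and 6 the CCAAT box. Among all 27025 promoters of that length, 21.7%, 7.12%, 17.5% and 34% held these letters. Tap1 and Psmb9 share their interval and so share its matches. A match describes the sequence and is not a measured site.

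Between 9177277 and 9999732 reads per control liver and between 8203299 and 9543675 per Smo-KO liver fell on genes (4 livers each; two-sided exact permutation p = 0.257). Values are CPM, the reads of a gene scaled to a common library size with the TMM factors, and 3 reads correspond to between 0.296 and 0.365 CPM. The least counted member value was 373 reads, for Nlrc5 in a control liver. The targeted gene, Smo, had 8.16, 8.48, 8.73 and 8.20 CPM in the controls, mouse 1 to mouse 4, and 5.66, 3.92, 4.26 and 4.37 CPM in Smo-KO mouse 1 to mouse 4. Every Smo-KO liver was thus below every control liver (log2 fold change -0.88, standard error 0.16; the quasi-likelihood test of edgeR gave an adjusted p of 0.0957, which was 0.0385 with no filter and 0.0265 without Smo-KO mouse 1, and DESeq2 gave 0.00613). Hepatocyte markers, led by Alb, summed to 32210 ± 2082 CPM in controls and 32031 ± 815 CPM in Smo-KO mice (SD over 4 livers), so both groups carried the hepatocyte genes that the label liver implies.

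Genes of peptide transport and loading, of the immunoproteasome and for H2-K1 averaged below their control level in Smo-KO livers, by amounts that did not pass edgeR's test after adjustment over all genes. Tap1 averaged 27.9% below control, Psmb9 24.1%, Tap2 20%, Psmb8 19.3%, Tapbp 19.0% and H2-K1 16.0%, while Psmb10 was at 91.5%, H2-D1 at 97.7%, Nlrc5 at 103% and B2m at 106% of control. Of the 10 members, 8 had a negative log2 fold change, with a median over the members of -0.28, against -0.00084 over all genes tested. After Benjamini-Hochberg adjustment over all genes, edgeR called 0 members, as it called 0 (0%) of the 12977 genes. At an unadjusted edgeR p under 0.05, 6 of 10 members were lower and 0 were higher, where 7.15% of all genes were lower and 6.7% higher. The 2 groups did not overlap for 4 members, all lower in Smo-KO, where 4.34% of all genes were separated in that direction and 3.03% in the other. That count was 2 with library totals without TMM and 7 without Smo-KO mouse 3, settings for which the share of all genes is not given here. DESeq2's Wald test called 1 member, Tapbp (adjusted p = 0.0370), where it called 0.647% of all genes as lower. Because whole liver was measured, fewer cells of a type and less RNA per cell cannot be told apart.

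**Figure D1:**
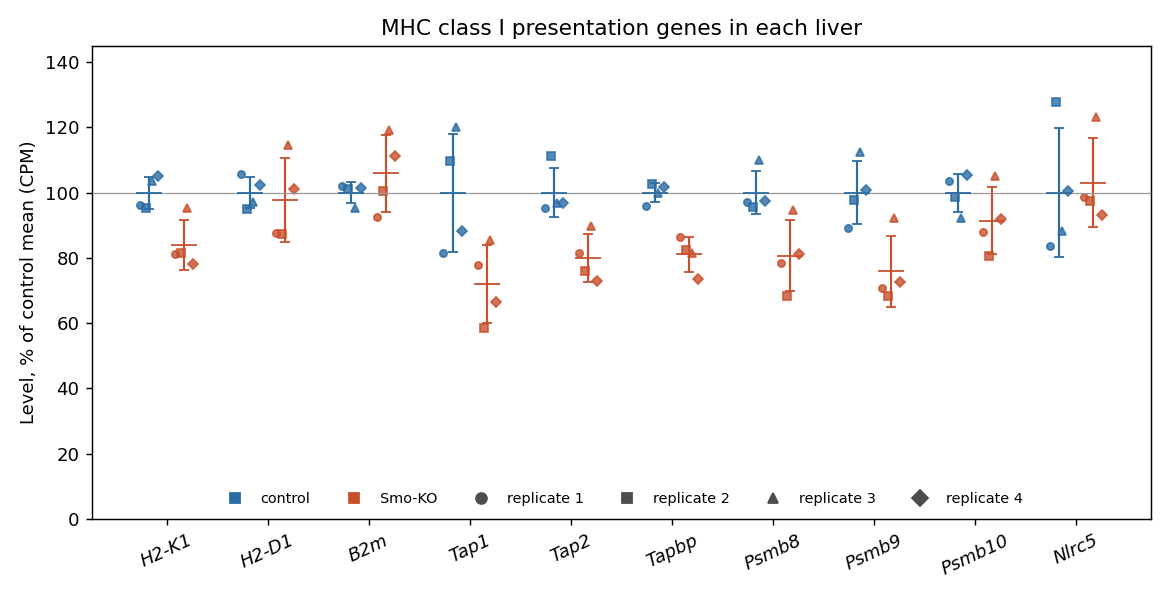
Level of each of the 10 genes in each liver, as a percentage of the control mean of that gene (CPM). Points are livers, bars are mean ± SD (n = 4 per group), and replicate numbers name livers without pairing them; Tapbp, Tap2, Psmb8 and H2-K1 have all Smo-KO points below all control points, H2-K1 by the smallest margin.

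Per kilobase of the longest coding transcript, the genes for the surface molecule were the most abundant. B2m averaged 2350 ± 75.0 CPM per kb (SD, n = 4) in control livers, H2-K1 1129 ± 55.5 and H2-D1 433 ± 20.9, with no overlap between neighbours. Tapbp at 126 ± 3.78, Psmb10 at 121 ± 7.05 and Psmb8 at 116 ± 7.70 CPM per kb overlapped in their ranges. Psmb9 followed at 88.2 ± 8.52. Tap2 at 44.3 ± 3.34 and Tap1 at 37.97 ± 6.88 overlapped, and Nlrc5 was lowest at 6.67 ± 1.32 CPM per kb.

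H2-K1, a heavy chain, measured 1758, 1743, 1891 and 1919 CPM in the controls, mouse 1 to mouse 4, and 1483, 1489, 1741 and 1428 CPM in the Smo-KO livers in the same order. Smo-KO mice 1, 2 and 4 lay well below the controls and mouse 3 only just below control mouse 2, a margin that closed with other size factors. Its log2 fold change was -0.25 (standard error 0.092, edgeR unadjusted p = 0.0171, adjusted p = 0.263), and the unadjusted p was 0.057 without Smo-KO mouse 4 and 0.0642 without control mouse 4. H2-D1, the other classical heavy chain, measured 961, 864, 882 and 929 CPM in controls and 797, 793, 1041 and 921 CPM in Smo-KO mice. Smo-KO mice 1 and 2 were below all controls and mouse 3 above them, so the mean difference (log2 fold change -0.03, standard error 0.10, edgeR unadjusted p = 0.746) was smaller than the spread. Of the 100-base windows of the longest transcript, 4.64% of those of H2-D1 were shared with other genes of the family and 0% of those of H2-K1.

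B2m, which pairs with every class I heavy chain, measured 2065, 2045, 1925 and 2050 CPM in controls and 1871, 2032, 2412 and 2249 CPM in Smo-KO mice. Controls were tightly grouped and Smo-KO livers fell on both sides of them (log2 fold change 0.08, standard error 0.096, edgeR unadjusted p = 0.405). The ratio of H2-K1 to B2m reads within a liver needs no scaling between livers. It was 0.851, 0.852, 0.982 and 0.936 in controls and 0.793, 0.733, 0.722 and 0.635 in Smo-KO mice, without overlap. The ratio of H2-K1 to H2-D1 reads, 2.01 ± 0.133 (SD, n = 4) in controls and 1.74 ± 0.157 in Smo-KO livers, overlapped through Smo-KO mice 1 and 2 and control mouse 1. Both ratios were chosen after values were seen and are given without a test.

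The transporter subunits differed in how they varied. Tap2 measured 145.1, 170, 147 and 148 CPM in the controls and 124, 116, 137 and 111 CPM in the Smo-KO livers. The groups were apart, with Smo-KO mouse 3 nearest to the controls (log2 fold change -0.32, standard error 0.093, edgeR unadjusted p = 0.00435, adjusted p = 0.183; exact permutation test, two-sided p = 0.0286). Tap1 measured 91.4, 123, 135 and 99.1 CPM in controls and 87.1, 65.6, 96.0 and 74.6 CPM in Smo-KO mice. Its mean difference was the largest of the 10, with a log2 fold change of -0.47 (standard error 0.14, edgeR unadjusted p = 0.00569, adjusted p = 0.199), but Smo-KO mouse 3 lay above control mouse 1 (exact permutation test, two-sided p = 0.0571). The smallest p that 4 mice against 4 allow in that test is 0.0286.

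Tapbp, the chaperone that bridges the transporter and the heavy chain, was the most evenly separated member. It measured 350, 374, 364 and 371 CPM in controls and 316, 301, 298 and 269 CPM in Smo-KO mice. No Smo-KO liver came near the lowest control, and the SD was 10.9 CPM in controls and 19.6 CPM in Smo-KO livers. It differed by -0.30 on the log2 scale (standard error 0.082), and its adjusted p was 0.168 with edgeR and 0.0370 with DESeq2. Of its 100-base windows, 14% are shared with other annotated genes, among them the antisense Gm19412. Because the counting is not stated to have used strand, reads from antisense genes, which also overlap exons of Tap2, Psmb8 and Nlrc5, cannot be told apart.

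Psmb8 and Psmb9, catalytic subunits of the immunoproteasome, averaged lower in Smo-KO livers, and the groups overlapped for Psmb10. Psmb8 measured 183, 181, 207 and 184 CPM in controls and 148, 129, 179 and 154 CPM in Smo-KO mice (log2 fold change -0.31, standard error 0.10, edgeR unadjusted p = 0.0109, adjusted p = 0.240). The groups were apart by little, since Smo-KO mouse 3 was just under control mouse 2, and they overlapped when library totals were used without TMM. Psmb9 measured 106, 116, 134 and 120 CPM in controls and 84.3, 81.4, 110 and 86.6 CPM in Smo-KO mice (log2 fold change -0.40, standard error 0.11, edgeR unadjusted p = 0.00338, adjusted p = 0.175). Here Smo-KO mouse 3 lay above control mouse 1 and the other Smo-KO livers lay below all controls. Psmb10 measured 165, 157, 147 and 167 CPM in controls and 140, 128, 167 and 146 CPM in Smo-KO mice (log2 fold change -0.13, standard error 0.096, edgeR unadjusted p = 0.201). In GENCODE M21, exons of Psmb9 and Tap1 overlap by 212 bases on opposite strands, which makes up 9.02% of the windows of Psmb9 and 3.96% of those of Tap1.

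Each immunoproteasome subunit takes the place of a constitutive one, Psmb8 that of Psmb5, Psmb9 that of Psmb6 and Psmb10 that of Psmb7, so their read ratio within a liver is a measure free of scaling between livers. Psmb8 to Psmb5 reads stood at 5.25, 6.01, 6.33 and 5.33 in controls and at 4.36, 3.98, 4.32 and 3.62 in Smo-KO mice. Every Smo-KO ratio was below every control ratio (log2 difference -0.49; exact permutation test, two-sided p = 0.0286, adjusted over 3 ratios 0.0857). Psmb9 to Psmb6 reads stood at 0.635 ± 0.0964 in controls and 0.468 ± 0.0680 in Smo-KO mice (SD over 4 livers; log2 difference -0.44, exact permutation p = 0.0571, adjusted 0.0857), with Smo-KO mouse 3 above control mouse 1. Psmb10 to Psmb7 reads stood at 0.965 ± 0.0859 and 0.870 ± 0.115 (log2 difference -0.15, exact permutation p = 0.343). After adjustment none of the 3 ratios passed 0.05. Psmb5 itself measured 33.0 ± 2.20 CPM in controls and 37.5 ± 5.10 CPM in Smo-KO livers (SD, n = 4; edgeR unadjusted p = 0.120), so the Psmb8 ratio combines a lower mean of the numerator and a higher mean of the denominator.

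**Figure D2:**
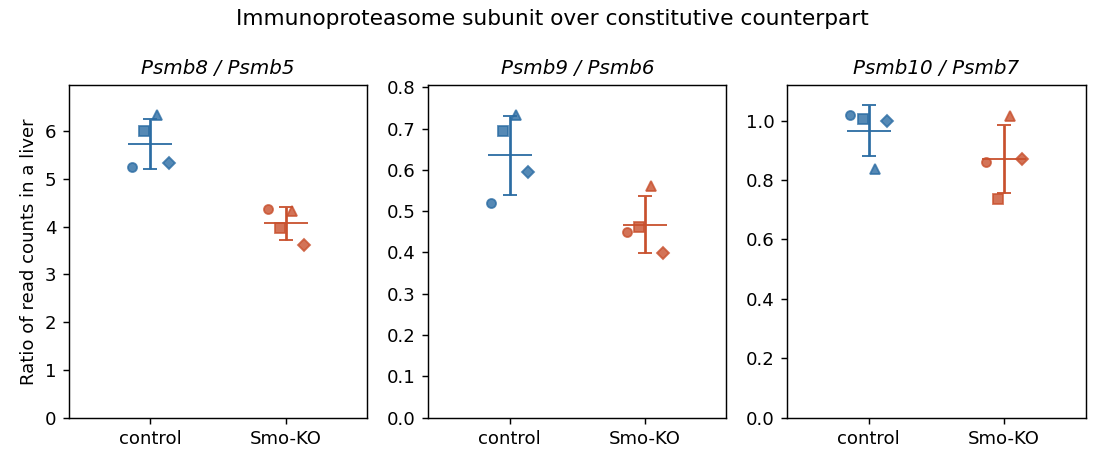
Ratio of the reads of each immunoproteasome subunit to those of the constitutive subunit it replaces, in each liver. Points are livers (circle, square, triangle and diamond for mouse 1 to mouse 4) and bars are mean ± SD (n = 4 per group); the Psmb8 to Psmb5 ratio is between 5.25 and 6.33 in controls and between 3.62 and 4.36 in Smo-KO livers, and the other ratios overlap.

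Nlrc5, the transactivator of class I genes, measured 42.3, 64.6, 44.7 and 50.8 CPM in controls and 49.9, 49.2, 62.2 and 47.2 CPM in Smo-KO mice. The groups overlapped throughout (log2 fold change 0.04, standard error 0.14, edgeR unadjusted p = 0.762), and the sign turned when any of 3 mice was left out. The ratio of Tap1 to Nlrc5 reads, chosen after values were seen and not tested, was 2.26 ± 0.519 in controls and 1.55 ± 0.170 in Smo-KO livers (SD, n = 4), without overlap.

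The Smo-KO livers differed among themselves. Smo-KO mouse 1 was below all 4 controls for 9 of the 10 genes, mouse 2 for 8 and mouse 4 for 7. Mouse 3 was below all controls for 4 (H2-K1, Tap2, Tapbp and Psmb8) and above all of them for H2-D1 and B2m. Mouse 4 was also above all controls for B2m. The share of all genes outside the controls in each liver is not given here. These counts therefore describe the livers and are no result about the members. The mean log2 CPM over the 10 genes lay -0.25, -0.33, -0.0067 and -0.26 from the control mean in Smo-KO mice 1 to 4. Over the 45 pairs of members, Pearson's r across the 8 livers had a median of 0.483 and ran from -0.522 (B2m and Tapbp) to 0.952 (H2-K1 and Psmb9). With group means removed the median was 0.458 and the range -0.543 to 0.899, so some pairs varied together within groups and others, such as B2m and Tapbp, in opposite directions. These correlations describe 8 livers that share 2 group means and 1 scaling.

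Outside the lists examined here, the 5 genes closest to the mean log2 CPM of the members over the 8 livers were Gbp4 (r = 0.974), Cxcl11 (0.951), Slamf7 (0.950), Igtp (0.943) and Traf2 (0.939). Gbp4 and Igtp encode interferon-inducible GTPases, Cxcl11 an interferon-inducible chemokine, Slamf7 a receptor of lymphocytes and other leukocytes, and Traf2 an adaptor of TNF receptors. Igtp measured 165, 284, 306 and 226 CPM in controls and 88.0, 98.2, 177 and 92.3 CPM in Smo-KO mice (log2 fold change -1.11, standard error 0.23, edgeR unadjusted p = 0.000354, adjusted p = 0.116). These genes were chosen for their likeness to the members over the same livers, so their values, the order of the livers and the p are a description and no further support.

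The rest of the class I pathway was examined by role. Among 13 other class I heavy chain genes with enough reads, of 19 listed, 12 had negative log2 fold changes (median -0.20) and 1, H2-Q4, was lower at an unadjusted p under 0.05, a share near the 7.15% of all genes. H2-Q4 measured 216, 249, 262 and 218 CPM in controls and 202, 169, 196 and 171 CPM in Smo-KO mice, without overlap (log2 fold change -0.36, standard error 0.099, edgeR unadjusted p = 0.00313, adjusted p = 0.172). H2-T10 had a log2 fold change of -0.20 (edgeR unadjusted p = 0.0504), and H2-Q10, the abundant secreted class I chain of hepatocytes, one of -0.15 (edgeR unadjusted p = 0.194). Several of these genes are near copies of each other. Of the windows of H2-T10, 11.8% are shared with H2-T22, and of those of H2-Q4, 13.9% are shared, chiefly with genes outside the family such as Gm11131 and Olfr204. H2-Q7, H2-Q9 and H2-T9 are listed at 0 in all livers, so the split of reads within the family is uncertain.

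Of 10 genes of peptide loading and trimming in the ER, 4 were lower at an unadjusted p under 0.05 and 0 were higher (all genes 7.15% and 6.7%; median log2 fold change -0.20). They were Tapbpl, the tapasin-related peptide editor (log2 fold change -0.38, edgeR unadjusted p = 0.00246, groups apart), Calr, the chaperone calreticulin (-0.33, 0.0136), Sec61a1, the core of the ER translocon (-0.36, 0.0235), and Pdia3, the disulfide isomerase of the loading complex (-0.23, 0.0428). Erap1, which trims peptides in the ER, measured a log2 fold change of 0.04 (edgeR unadjusted p = 0.658) and Canx, calnexin, -0.05 (0.572). For Tapbpl, Calr, Sec61a1 and Pdia3 the lowest Smo-KO liver was mouse 3, at 38.4, 710, 264 and 490 CPM, the liver that was highest among Smo-KO mice for H2-K1, Tap1, Tap2, Psmb8 and Psmb9.

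Constitutive proteasome genes were centred near 0. Of 14 subunits of the constitutive 20S core, 0 were lower or higher at an unadjusted p under 0.05, with a median log2 fold change of 0.015, and so were 0 of 9 activators and assembly factors (median -0.040). The smallest p among the core subunits were those of Psmb5 (log2 fold change 0.18) and Psma6 (0.13, edgeR unadjusted p = 0.153). Of the activator genes, Psme3 had a log2 fold change of -0.12 (edgeR unadjusted p = 0.188), and the interferon-inducible Psme2 and Psme1 had -0.11 (0.212) and -0.10 (0.271). Among 7 cytosolic peptidases 1 was lower, Lap3, an aminopeptidase (log2 fold change -0.23, edgeR unadjusted p = 0.0258, groups apart), and Thop1, an oligopeptidase, had 0.12 (0.239). The groups overlapped for Lap3 with RLE size factors and with the filter of at least 10 counts in every liver. Among 11 regulators of class I promoters 1 was lower, Nfkb1, an NF-kappaB subunit (-0.24, 0.0305), while Rfx5, an RFX subunit, had -0.23 (0.117). With 7.15% of all genes lower at that p, 1 gene in lists of 7 and 11 is no result about these lists. edgeR's adjusted p was above 0.05 for every gene in these lists.

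Interferon gamma pathway genes included the widest differences among the lists examined, and how far they exceed the members was not tested. Of 13 tested, 7 were lower at an unadjusted p under 0.05 and 0 higher, beside 7.15% and 6.7% of all genes (median log2 fold change -0.49). Irf1, a transcription factor that acts on class I promoters, measured 126, 121, 104 and 120 CPM in controls and 97.0, 72.1, 90.6 and 77.3 CPM in Smo-KO mice, without overlap (log2 fold change -0.49, standard error 0.11, edgeR unadjusted p = 0.00061, adjusted p = 0.132; DESeq2 adjusted p = 0.0122). The transcription factor Batf2 (-1.07), Socs1, the feedback inhibitor (-1.27), the T cell chemoattractants Cxcl9 (-1.55) and Cxcl10 (-1.17), and Ciita, the class II transactivator (-0.89), were also among the 7. The groups were apart for Batf2 and Ciita and overlapped for Socs1, Cxcl9 and Cxcl10. DESeq2's adjusted p was under 0.05 for Batf2, Socs1, Cxcl9 and Ciita, and 0.102 for Cxcl10. The receptor genes Ifngr1 (0.07) and Ifngr2 (0.16) and the kinases Jak1 (-0.12) and Jak2 (-0.05) had edgeR unadjusted p from 0.211 to 0.679. Ifng itself was at 0.301 ± 0.289 CPM in controls and 0.175 ± 0.231 CPM in Smo-KO livers (SD, n = 4), near the value of 3 reads, and no difference was detectable at this depth.

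MHC class II, which presents peptides from outside the cell to CD4+ T cells, had 6 of 8 tested genes lower at an unadjusted edgeR p under 0.05, beside 7.15% of all genes (median log2 fold change -0.57), and 0 passed edgeR's adjusted test. The remaining genes were H2-DMb1 (log2 fold change -0.25, edgeR unadjusted p = 0.150) and H2-Ob (-0.02, 0.940), and DESeq2's adjusted p was under 0.05 for H2-Aa, H2-Ab1, H2-Eb1 and Cd74. Cd74, the invariant chain, measured 674, 834, 964 and 950 CPM in controls and 519, 489, 784 and 426 CPM in Smo-KO mice (log2 fold change -0.63, standard error 0.17, edgeR adjusted p = 0.175; DESeq2 adjusted p = 0.0364). Smo-KO mouse 3 again lay within the control range and the other Smo-KO livers lay below it. H2-DMa and H2-DMb2, chains of the class II peptide editor, had log2 fold changes of -0.54 (edgeR unadjusted p = 0.005) and -0.38 (0.024). The groups overlapped for all 8 genes.

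**Figure D3:**
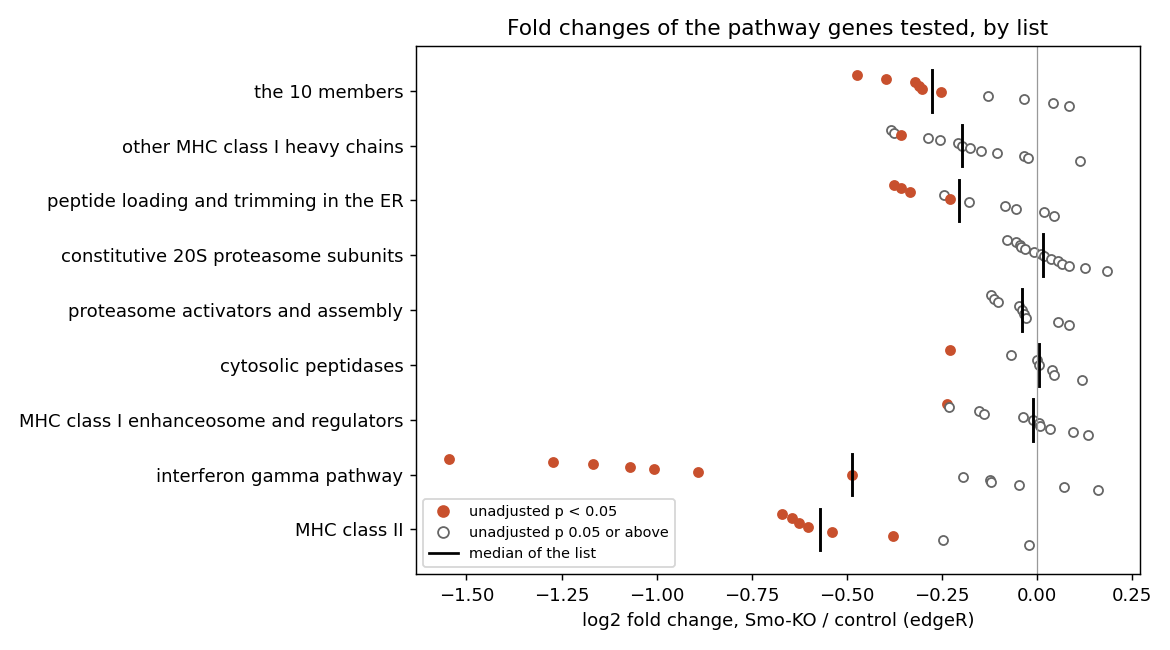
Log2 fold change of Smo-KO against control livers (edgeR) for each gene tested, by list. Filled points have an unadjusted p under 0.05 and vertical lines are list medians, which run from 0.015 for constitutive 20S subunits to -0.57 for MHC class II; edgeR's adjusted p is above 0.05 for every point.

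Summed markers of T and NK cells were lower in the same livers, and their part in the class I values was not tested. The 7 T cell markers tested, of 9 listed, summed to 43.6, 42.1, 42.3 and 53.4 CPM in the controls and 21.7, 19.0, 32.0 and 30.9 CPM in the Smo-KO livers, 57.1% of control (exact permutation test, two-sided p = 0.0286). This p is the smallest the test allows. Like those of the other cell type sums, it was not adjusted for the number of sums tested. All 7 T cell markers were lower at an edgeR unadjusted p under 0.05, where 7.15% of all genes were lower and 6.7% higher. Cd8a was the most abundant, and none was at 0 in any liver. The 10 NK cell markers summed to 35.1, 46.4, 35.4 and 44.3 CPM in controls and 21.2, 17.2, 28.02 and 24.4 CPM in Smo-KO mice, 56.3% of control (exact permutation test, two-sided p = 0.0286). Nkg7 (mean 14.4 CPM in controls and 7.58 CPM in Smo-KO livers) and Il2rb (10.5 and 4.43 CPM) were the most abundant in controls. None was at 0 in all livers, though Klrb1c, at 105% of control, had between 0 and 3 reads per liver. Of 6 tested, 4 were lower at an edgeR unadjusted p under 0.05 and 0 higher, beside 7.15% and 6.7% of all genes. The remaining tested markers were Klrk1 and Gzmb (edgeR unadjusted p = 0.288 and 0.119). Whether reads of the NK cell list came from NK cells or T cells was not tested. Smo-KO mouse 3 had the highest sums of both lists among the Smo-KO livers and Smo-KO mouse 2 the lowest, as they had the highest and lowest mean of the 10 class I genes. Smo-KO mouse 4 was above mouse 1 in both sums but below it in that mean. The sums for all leukocytes and for B cells, whose groups overlapped, had the same highest and lowest Smo-KO livers.

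For the other cell types, the groups overlapped in their summed markers. Genes of all leukocytes summed to 336 ± 45.0 CPM in controls and 349 ± 28.4 CPM in Smo-KO livers (SD, n = 4; exact permutation test, two-sided p = 0.657). Sums for B cells, Kupffer cells, macrophages, dendritic cells, neutrophils, sinusoidal endothelial cells, stellate cells and cholangiocytes were between 87.1% and 119% of control, with exact permutation p from 0.429 to 1. The single gene of these lists with an unadjusted edgeR p under 0.05 was Ccr7, a homing receptor of dendritic cells and T cells (log2 fold change -0.63, unadjusted p = 0.0178). Ly6g, a defining neutrophil marker, was at 0 in all livers.

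**Figure D4:**
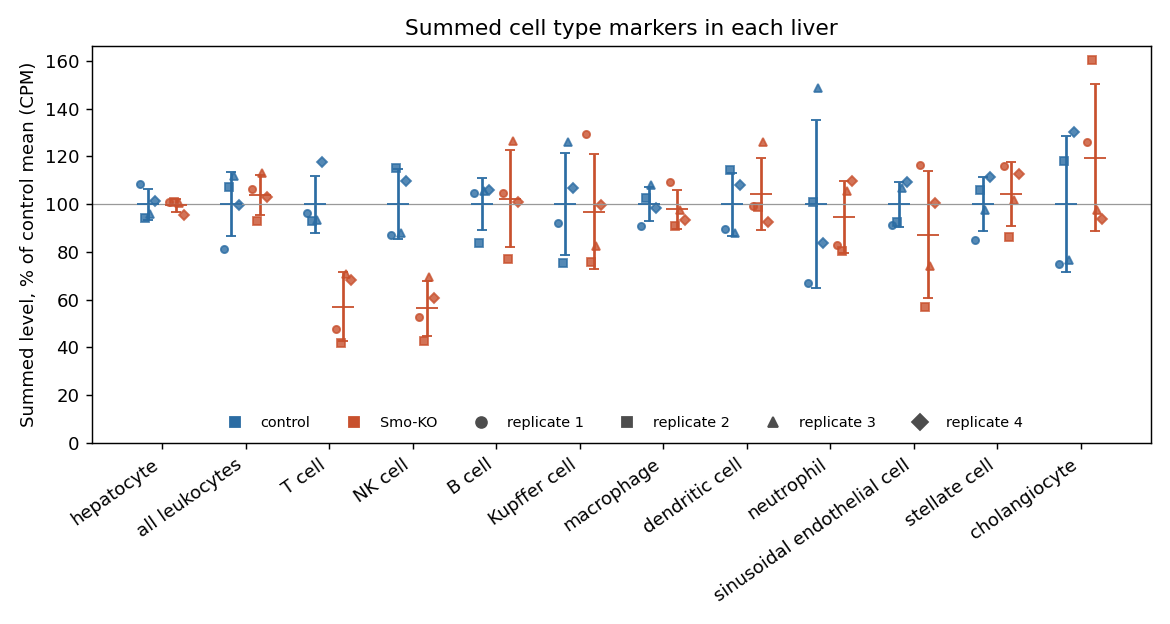
Summed CPM of the markers of each cell type in each liver, as a percentage of the control mean. Points are livers and bars are mean ± SD (n = 4 per group); T cell and NK cell sums are at 57.1% and 56.3% of control in Smo-KO livers, with all Smo-KO points below all control points, and the other sums overlap.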

How the data were processed

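Liver RNA was sequenced on an Illumina NovaSeq from libraries made with the NEB Next Ultra kit. The authors deposited 1 list of whole-number counts per liver over 25239 gene symbols, without normalization. The submitters' processing notes name fastp, STAR 2.7.5, featureCounts 2.0.1 and GRCm38; the deposited lists look like htseq-count output, and strand and annotation are not given in the sources used here. Reads on no feature (8.33% ± 0.743 in controls, 9.23% ± 0.330 in Smo-KO livers, SD, n = 4; exact permutation test, two-sided p = 0.114) and on more than 1 gene (2.55% ± 0.0719 and 2.51% ± 0.0456) entered neither library sizes nor tests.

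Counts were tested with edgeR 4.0.16 in R 4.3.3: filterByExpr, TMM, estimateDisp, glmQLFit and glmQLFTest on genotype alone, with p-values adjusted by Benjamini-Hochberg over the 12977 genes and a threshold of 0.05. Standard errors are those implied by the F statistic. Log2 CPM used a prior count of 2. Single values were compared by exact permutation over the 70 assignments of mice, two-sided. DESeq2 1.42.0, other scalings and filters, a replicate block and leaving out each mouse were alternatives. The edgeR step was tested on simulated data. Livers of 1 group differed by a chi-square of 8.17 to 18.5 per degree of freedom, so none was a copy. Molecular identifiers are not given, so depth describes counting error only.

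The lists and tests, like the members, were chosen with earlier results of these data known. Genes named were Smo, the 10 members, per pathway list (cell type marker lists are described by their sums) those with an unadjusted p under 0.05 or, where fewer than 2 were, the 2 with the smallest p, and the 5 genes outside the lists with the highest r to the member mean. The result of 1 pathway gene that this rule names is not reported here; counts and medians still include it. Erap1, Canx, H2-Q10, H2-DMb1, H2-Ob, Psme1, the interferon receptors and kinases, Ifng, Ccr7, Il2rb, Klrk1, Gzmb, Klrb1c and Ly6g were named after values were seen. Older symbols were matched through RefSeq (GRCm38.p6). Trac, Trbc2 and Ighm were not matched. Transcript lengths and shared 100-base windows came from GENCODE M21. Sequences are from RefSeq GRCm38.p6; promoters of Tap2 and Nlrc5 were not analysed here. Figures used matplotlib 3.10.9.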

Additional observations from a re-analysis of the deposited data

Results flagged for a closer look

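Values far from the other 3 livers of their group were looked for in 52 groups of 4 (26 measures), of which chance alone gives about 1 in 20, or 2.6; 7 were found. B2m was at 1925 CPM in control mouse 3, against 2045 to 2065 CPM in the other controls. Tap2 was at 170 CPM in control mouse 2, against 145.1 to 148 CPM. Psmb8 was at 207 CPM in control mouse 3, against 181 to 184 CPM. The Psmb10 to Psmb7 ratio was 0.837 in control mouse 3, against 1 to 1.02. T cell markers summed to 53.4 CPM in control mouse 4, against 42.1 to 43.6 CPM, and B cell markers to 7.33 CPM in control mouse 2, against 9.18 to 9.29 CPM. Hepatocyte markers summed to 30810 CPM in Smo-KO mouse 4, against 32378 to 32477 CPM.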

How the results depend on the processing

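The number of genes edgeR called, 0, became 163 by DESeq2, 61 without the filter and 8 with the replicate block, and was between 0 and 78 over the fits that leave out 1 mouse (78 without Smo-KO mouse 1, 5 without control mouse 1 and 4 without Smo-KO mouse 3). The number of members called was 1 with DESeq2 (Tapbp) and 0 in the other 13 alternatives. Between 5 and 7 members had an unadjusted p under 0.05. For this count and the next, the share of all genes in each alternative is not given here. Members whose groups do not overlap numbered 2 with library totals without TMM (Tap2 and Tapbp), and between 4 and 7 over the fits that leave out 1 mouse (7 without Smo-KO mouse 3, where Tap1, Psmb9 and Psmb10 joined). The groups overlapped for H2-K1 with RLE size factors, library totals and the filter of at least 10 counts in every liver, and for Psmb8 with library totals. The log2 fold change of H2-D1 turned to 0.021 without Smo-KO mouse 1 and 0.017 without Smo-KO mouse 2, and that of Nlrc5 to -0.033 without control mouse 1, -0.0084 without control mouse 3 and -0.053 without Smo-KO mouse 3. Over the fits that leave out 1 mouse these ran from -0.12 to 0.021 and from -0.053 to 0.19. The other 8 members kept their sign throughout. Adjusted p of Smo ran from 0.00613 (DESeq2) to 0.219, with 0.0385 for no filter and 0.0265 without Smo-KO mouse 1. The ratios of Psmb8 to Psmb5, Psmb9 to Psmb6 and Psmb10 to Psmb7 stayed negative, between -0.53 and -0.44, -0.53 and -0.37, and -0.23 and -0.076 on the log2 scale. The causes were not tested.

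Nothing in the labels pairs livers of the same replicate number, and they were not treated as paired in the main fit. The correlations of their deviations were low but all positive, at 0.104, 0.187, 0.0611 and 0.113 for numbers 1 to 4. Of the 4 control livers, 3 correlated best with their own number. Whether livers of 1 number share a factor was not tested. With the replicate block 8 genes and 0 members were called, and Psmb9 had an adjusted p of 0.0845 (edgeR). The depth limits Ifng, Ncr1 and other genes near 3 reads, not the members.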
